A study of Mus musculus with 8 samples.

Results

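Saa3, Lcn2, C3, Hp, Serping1, C1s1 and C1ra encode secreted proteins of the acute-phase response and of the complement system, and were chosen by name. All 7 were among the 41730 genes of the count table, and 6 of them were among the 13393 genes with enough reads to be tested. The libraries were made from spheroids of 4T1 cells, a mouse mammary carcinoma line, grown in hanging drops in DMEM with serum. Cells of 4 libraries (shCtrl) had received a lentivirus with a scrambled hairpin RNA, and cells of the other 4 (shTlr7) one with a hairpin RNA against Tlr7, so both groups were transduced. The labels do not say whether libraries of a group came from different cultures, and p-values here describe the spread among these libraries, which may be technical.

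Acute-phase proteins are made in larger or smaller amounts during inflammation, chiefly by the liver but also by epithelia and tumours. Interleukin-6 acting through STAT3, interleukin-1 acting through NF-kB, and C/EBP factors are the textbook inducers of their genes. Complement is a cascade of proteases in plasma and tissue: C1r and C1s start the classical pathway, the C1 inhibitor encoded by Serping1 blocks them, and all pathways meet at C3, whose fragments mark surfaces for removal.

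Library totals ranged from 18.1 to 93.8 M counts. Tlr7 had 2 or 3 counts in each shCtrl library and 0 to 4 in each shTlr7 library, too few to check the hairpin. On the second principal component (4.85% of the variance) the library numbered 4 stood apart from the other 3 in both groups. Values without both of these libraries are therefore given for C3 and Lcn2, and where the call or sign of a named gene changed. Levels are given as CPM, the counts scaled to the TMM-adjusted library total. Markers of the carcinoma epithelium were all present and summed to 5545 to 6014 CPM in shCtrl and 4097 to 4378 CPM in shTlr7. The keratins Krt7, Krt8, Krt18 and Krt19 were called lower (-1.19 to -0.37 in log2 fold change), while Epcam (0.15 ± 0.05) and Cdh1 (0.20 ± 0.04) were called higher. Hepatocyte markers summed to at most 0.539 CPM in any library, with 2 of 7 at 0 (Ttr and Serpina1a), and their range was 0.364 to 0.539 CPM in shCtrl and 0.143 to 0.269 CPM in shTlr7. Macrophage markers summed to 24.5 to 29.1 CPM in shCtrl and 31.7 to 44.6 CPM in shTlr7, nearly all of it Cd68 (0.72 ± 0.11), with 4 of 9 at 0 (Adgre1, Lyz2, C1qa and C1qc). The other two tested macrophage markers, Csf1r (-2.17 ± 0.24) and Mrc1 (-1.01 ± 0.27), were called lower. The neutrophil list (0.377 to 0.619 CPM in shCtrl, 0.285 to 0.482 CPM in shTlr7) had Mpo, Retnlg and Csf3r at 0, and the endothelial list (0.221 to 0.377 and 0.399 to 0.643 CPM) had Emcn at 0. Fibroblast markers, none at 0 and led by Pdgfra, summed to 44.3 to 45.6 CPM in shCtrl and 44.6 to 49.9 CPM in shTlr7. Of the 3 tested, Fap was called higher (2.39 ± 0.25), from a mean of 0.359 to 2.01 CPM, and Pdgfra and Col1a1 were not called. Col1a2, too low to test, had 12 counts over the shCtrl libraries and 0 over the shTlr7 libraries. The part of these differences in the results was not tested.

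C3, Lcn2 and C1s1 fell in shTlr7, by 2.31-fold, 1.91-fold and 2.74-fold. C1ra, Serping1 and Saa3 did not pass the threshold, none of the tested genes was called higher, and Hp had too few reads to test. A gene was called at an adjusted p under 0.05 in edgeR's quasi-likelihood test. By this rule 3 of the 6 tested genes were called, all lower, where 56.1% of all tested genes were called (26.8% lower and 29.3% higher), so the share among these genes is near the background. C3, Lcn2 and C1s1 had no overlap between the groups in CPM, which held for 49.8% of all tested genes. Without both libraries numbered 4, C1ra was also called lower and Saa3 was called higher. In bulk samples, fewer cells that express a gene and less of its RNA per cell cannot be told apart.

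**Figure D1:**
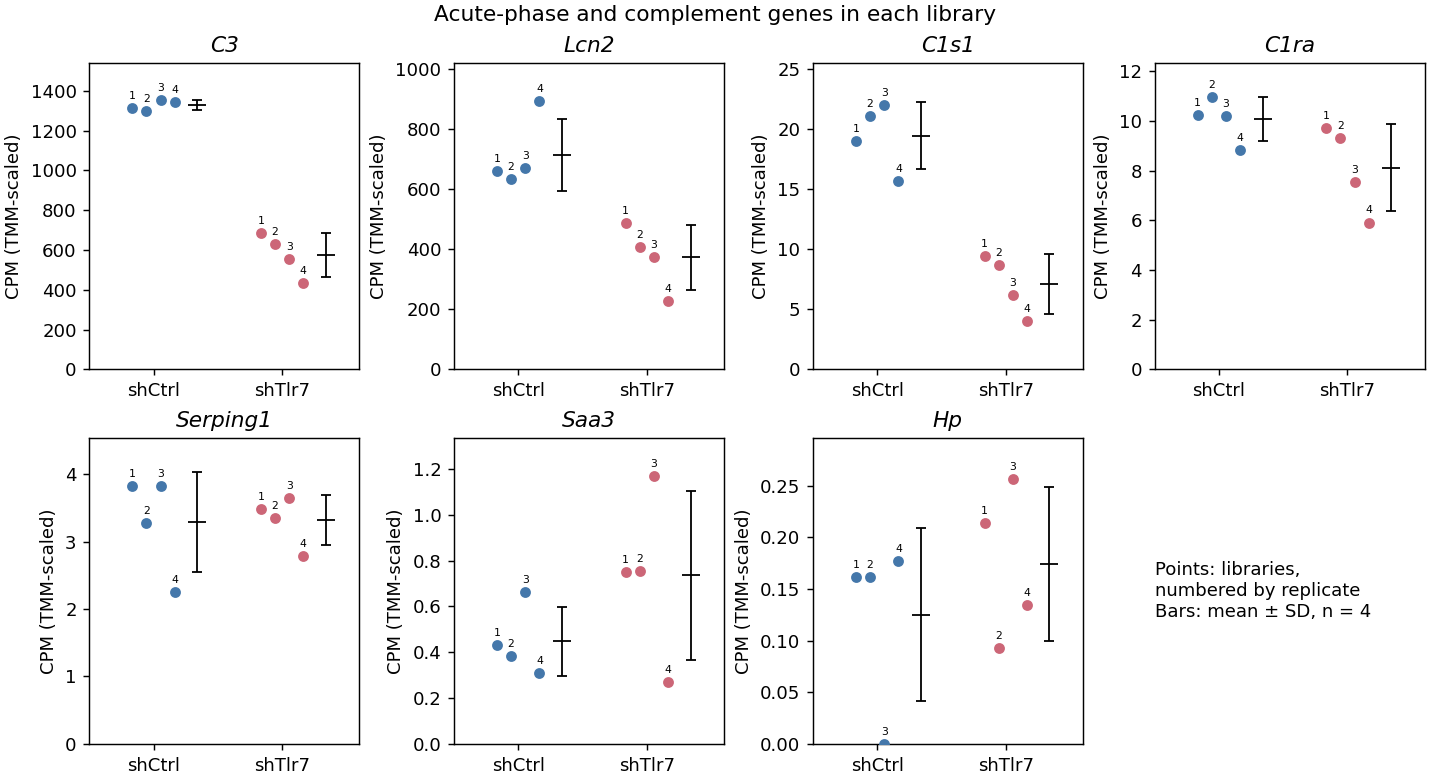
CPM of the 7 genes in each of the 8 libraries, with points for libraries and the mean ± SD of 4 libraries per group. All shTlr7 points lie below all shCtrl points for C3, Lcn2 and C1s1, and the groups overlap for C1ra, Serping1, Saa3 and Hp.

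Promoter sequences from RefSeq (GRCm38.p6), spanning 250 bases before to 50 after the annotated start, were matched for 5 of the 7 genes. The 250 bases before the start are shown for the 3 genes that fell and for Saa3, so that the letters of C/EBP sites can be compared between them. Capitals mark matches to TTGCNNAA or TTGNNNAAT, a pair of C/EBP forms that can overlap, and in Saa3 the first capitals mark GAAANNGAA, letters of the interferon response element; both strands were searched. All 4 are read on the minus strand: C3 at chr17:57228137-57228386, Lcn2 at chr2:32387740-32387989, C1s1 at chr6:124542360-124542609 and Saa3 at chr7:46715677-46715926.
C3: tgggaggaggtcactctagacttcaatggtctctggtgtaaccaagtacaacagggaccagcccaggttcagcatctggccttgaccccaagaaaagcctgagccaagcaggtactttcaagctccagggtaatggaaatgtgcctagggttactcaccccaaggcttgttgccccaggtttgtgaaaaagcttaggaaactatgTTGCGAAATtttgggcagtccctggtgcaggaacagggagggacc
Lcn2: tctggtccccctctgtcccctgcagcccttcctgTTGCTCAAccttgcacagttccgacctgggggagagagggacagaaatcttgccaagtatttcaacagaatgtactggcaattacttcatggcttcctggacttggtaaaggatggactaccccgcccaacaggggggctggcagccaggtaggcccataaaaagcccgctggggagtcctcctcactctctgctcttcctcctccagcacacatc
C1s1: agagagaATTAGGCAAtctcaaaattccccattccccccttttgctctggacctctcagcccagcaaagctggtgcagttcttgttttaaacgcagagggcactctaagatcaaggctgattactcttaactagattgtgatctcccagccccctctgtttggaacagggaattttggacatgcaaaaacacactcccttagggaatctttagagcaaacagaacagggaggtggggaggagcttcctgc
Saa3: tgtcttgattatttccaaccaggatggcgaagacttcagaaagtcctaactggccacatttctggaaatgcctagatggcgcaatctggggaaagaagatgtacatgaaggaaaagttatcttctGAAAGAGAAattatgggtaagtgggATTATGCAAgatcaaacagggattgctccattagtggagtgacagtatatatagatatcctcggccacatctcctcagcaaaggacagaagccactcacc

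TTGCNNAA occurred in a window of all 5 matched genes and in 10.8% of the 32851 windows of the table. It lay at -45 to -38 in C3, counting back from the start, at -99 to -92 in Saa3, at -216 to -209 in Lcn2 and at -242 to -235 in C1s1. In C1ra it lay after the start, at 17 to 24, and the window of another annotated C1s1 start held none of the letters searched. TTGNNNAAT occurred in 4 of the 5 genes (all but Lcn2) and in 11.4% of all windows. The NF-kB letters GGANTTTCC were in none of the 5 (1.25% of all windows), the STAT letters TTCNNNGAA in C1ra (8.3%), GAAANNGAA in Saa3 (8.56%) and the TATA box letters TATAAA in C3, after its start (13.6%). Because the NF-kB letters are rare in all windows, finding none in 5 genes says little. Other forms of the NF-kB site were not searched. The C/EBP letters were thus present both in the genes that fell and in Saa3 and C1ra, which were not called, and a match describes the sequence only.

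C3, the component on which all complement pathways act (chr17:57203967-57228136), had 1315, 1298, 1353 and 1344 CPM in shCtrl replicates 1 to 4. In shTlr7 replicates 1 to 4 it had 684, 630.5, 553 and 432 CPM. The shCtrl libraries lay close together, and every shTlr7 library was far below them, replicate 4 the lowest. The mean fell from 1327 ± 25.6 to 575 ± 109 CPM (SD, n = 4), a log2 fold change of -1.21 ± 0.13 (SE; edgeR adjusted p = 5.52e-05). A larger fall was measured for 404 of the 13393 tested genes. Without both libraries numbered 4 the value for C3 was -1.09 (edgeR adjusted p = 3.40e-08).

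Lcn2 (chr2:32384637-32387739) encodes lipocalin 2, a secreted protein that binds bacterial iron carriers and is made by epithelia under stress. It had 659, 632, 670.3 and 893 CPM in shCtrl replicates 1 to 4 and 487, 406, 373 and 228 CPM in shTlr7 replicates 1 to 4. The groups did not overlap, and the libraries numbered 4 lay at the outer ends, the highest in shCtrl and the lowest in shTlr7. The mean fell from 714 ± 121 to 373 ± 108 CPM (SD, n = 4), a log2 fold change of -0.94 ± 0.25 (SE; edgeR adjusted p = 0.0163). Without both libraries numbered 4 the fall was smaller, at -0.64 ± 0.10 (edgeR adjusted p = 0.00289). With all libraries Lcn2 was not called against a fold of 1.5 (edgeR glmTreat adjusted p = 0.317). The count ratio of Lcn2 to C3 was 0.537 ± 0.0851 in shCtrl and 0.639 ± 0.0801 in shTlr7, with overlapping groups (exact two-sided permutation p = 0.0857, adjusted p = 0.171 over 6 ratios). The overlap came from the libraries numbered 4, at 0.664 in shCtrl and 0.527 in shTlr7: the other shCtrl libraries had 0.501, 0.487 and 0.496, and the other shTlr7 libraries 0.712, 0.644 and 0.674, a split that was not tested.

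C1s1 and C1ra encode the proteases of the C1 complex, in which C1r activates C1s and C1s cleaves the next components. Their 3′ ends face each other 6903 bases apart, C1ra at chr6:124512621-124523440 on the plus strand and C1s1 at chr6:124530344-124542392 on the minus strand. C1s1 had 19.0, 21.1, 22.0 and 15.7 CPM in shCtrl replicates 1 to 4 and 9.43, 8.70, 6.22 and 4.00 CPM in shTlr7 replicates 1 to 4. Each shTlr7 library was below each shCtrl library, and replicate 4 was the lowest of both groups. The mean fell from 19.4 ± 2.81 to 7.09 ± 2.48 CPM (SD, n = 4), a log2 fold change of -1.45 ± 0.24 (SE; edgeR adjusted p = 0.00102), the largest fall of the 6 tested genes. A larger one was measured for 289 of all tested genes.

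C1ra had 10.2, 10.95, 10.2 and 8.84 CPM in shCtrl replicates 1 to 4 and 9.70, 9.31, 7.53 and 5.91 CPM in shTlr7 replicates 1 to 4. The groups overlapped, since shCtrl replicate 4 was below shTlr7 replicates 1 and 2. The log2 fold change was -0.31 ± 0.14 (SE; edgeR adjusted p = 0.0682), with a 95% interval, unadjusted for the number of genes, from -0.61 to -0.02. C1ra was called when shCtrl replicate 4 (-0.38, edgeR adjusted p = 0.0347), shTlr7 replicate 1 (-0.38, 0.0385), shTlr7 replicate 2 (-0.41, 0.0346) or both libraries numbered 4 (-0.26, 0.0169) were left out.

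Serping1 (chr2:84765360-84775444), which encodes the inhibitor of C1r and C1s, had 3.83, 3.28, 3.82 and 2.25 CPM in shCtrl replicates 1 to 4 and 3.48, 3.34, 3.65 and 2.79 CPM in shTlr7 replicates 1 to 4. The groups covered nearly the same range, and replicate 4 was the lowest of each. The log2 fold change was 0.02 ± 0.16 (SE; edgeR adjusted p = 0.927), with an unadjusted 95% interval from -0.33 to 0.36. The sign turned without shCtrl replicate 4 (-0.12) and without shTlr7 replicate 3 (-0.03).

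Ratios of raw counts within a library compare the protease genes with each other and with the inhibitor gene. For each C1ra count there were 1.85, 1.93, 2.16 and 1.77 C1s1 counts in shCtrl replicates 1 to 4, and 0.972, 0.935, 0.826 and 0.676 in shTlr7 replicates 1 to 4. Every shCtrl library had more C1s1 than C1ra counts and every shTlr7 library fewer. The mean ratio was 1.93 ± 0.166 in shCtrl and 0.852 ± 0.133 in shTlr7 (SD, n = 4; exact two-sided permutation p = 0.0286, the smallest that 4 against 4 libraries allow, adjusted p = 0.0857 over 6 ratios). C1s1 to Serping1 gave 6.03 ± 0.866 and 2.11 ± 0.638, also without overlap and with the same exact permutation p and adjusted p. C1ra to Serping1 overlapped between groups, at 3.15 ± 0.603 and 2.44 ± 0.401 (exact permutation p = 0.171, adjusted p = 0.257). None of the 6 ratios passed after adjustment. With 4 libraries per group, a ratio could pass only if most of the 6 reached the smallest p. The adjusted result therefore cannot decide whether a single ratio differs.

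**Figure D2:**
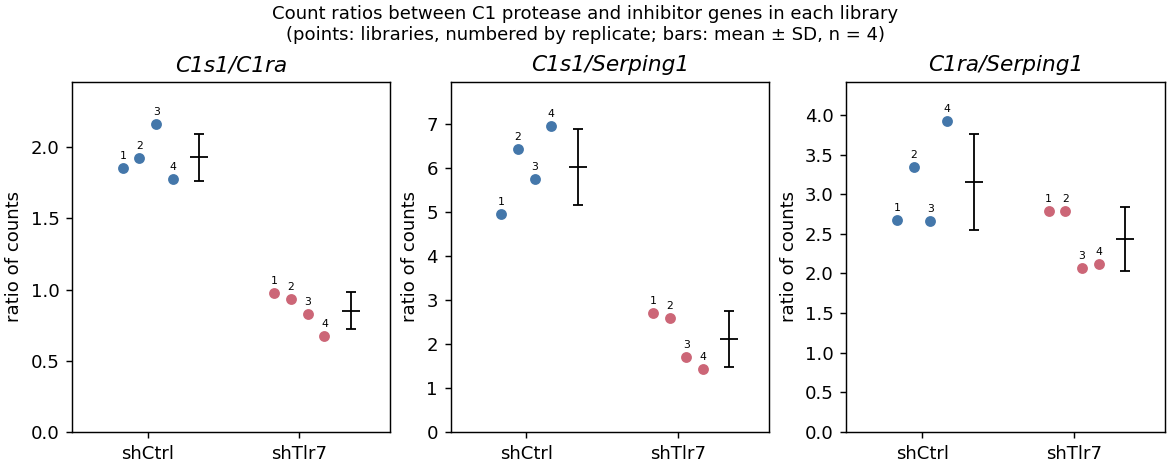
Ratios of raw counts in each of the 8 libraries, with points for libraries and the mean ± SD of 4 libraries per group. For C1s1 over C1ra the shTlr7 libraries lie at 0.676 to 0.972 and the shCtrl libraries at 1.77 to 2.16.

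C1ra and C1s1 lie in a cluster of 5 related genes within 143.0 kb of chromosome 6, with C1rl, C1rb and C1s2. C1s2, a copy of C1s1, had 3.07, 2.33, 2.24 and 1.77 CPM in shCtrl replicates 1 to 4 and 1.18, 1.19, 0.913 and 0.571 CPM in shTlr7 replicates 1 to 4. All shTlr7 libraries were below all shCtrl libraries, and C1s2 fell with a log2 fold change of -1.24 ± 0.23 (SE; edgeR adjusted p = 3.81e-04). C1rb, a copy of C1ra, and the C1r-like gene C1rl were not called (-0.19 ± 0.30 and 0.04 ± 0.22), and the sign of C1rl turned without shCtrl replicate 1, shCtrl replicate 4 or shTlr7 replicate 2. The copies share sequence: 35.1% of the 50-base stretches of C1s1 transcripts and 50.8% of those of C1ra occur in other genes (GENCODE M21), chiefly C1s2 and C1rb. There were 0.122 ± 0.0272 C1s2 counts for each C1s1 count in shCtrl and 0.138 ± 0.00952 in shTlr7, and 0.0418 ± 0.00940 and 0.0429 ± 0.00528 C1rb counts for each C1ra count. How the counting divided reads between copies was not tested, and these values are uncertain for that reason. Gm16567, on the opposite strand, overlaps 18.4% of the exons of C1s1, and without a stated strand setting their reads cannot be told apart.

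Saa3 (chr7:46711998-46719615) encodes serum amyloid A3, an acute-phase apolipoprotein that is also made outside the liver. It had 8, 19, 13 and 7 counts in the shCtrl libraries in order of replicate, and 14, 73, 41 and 8 in the shTlr7 libraries. Scaled to depth these were 0.431, 0.385, 0.663 and 0.309 CPM and 0.750, 0.753, 1.17 and 0.269 CPM. Of the shTlr7 libraries 3 were above all shCtrl libraries, and replicate 4 was below all of them. The log2 fold change was 0.79 ± 0.38 (SE; edgeR adjusted p = 0.0905). Leaving out shTlr7 replicate 4 gave 1.02 (edgeR adjusted p = 0.00815), and leaving out both libraries numbered 4 gave 0.90 (edgeR adjusted p = 0.00824). The related genes Saa1, Saa2 and Saa4 had 1, 3 and 0 counts over all 8 libraries.

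Hp (chr8:109575128-109579172) encodes haptoglobin, which binds free haemoglobin. Its counts were 3, 8, 0 and 4 in the shCtrl libraries in order of replicate and 4, 9, 9 and 4 in the shTlr7 libraries. The 0 in shCtrl replicate 3 allows up to 0.148 CPM (3 counts of the unadjusted total). Summed per group there were 15 and 26 counts, a depth-scaled ratio of shTlr7 to shCtrl of 1.06 with an exact 95% interval from 0.54 to 2.15, for counting error only. No difference in Hp was detectable at this depth.

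Levels of the 7 genes were compared per kb of the principal transcript. In shCtrl, Lcn2 was highest at 780.1 ± 132 CPM per kb (SD, n = 4), then C3 at 258 ± 4.98 and C1s1 at 6.60 ± 0.955. C1ra had 3.37 ± 0.297, Serping1 1.86 ± 0.419, Saa3 0.805 ± 0.274 and Hp 0.0930 ± 0.0622 CPM per kb. In shTlr7, Lcn2 (408 ± 118) stayed above C3 (112 ± 21.3), followed by C1ra (2.72 ± 0.585), C1s1 (2.41 ± 0.841) and Serping1 (1.88 ± 0.212). There C1s1 lay within its SD of both neighbours, while C1ra and Serping1 differed by more than their SDs. Saa3 (1.33 ± 0.664) lay within its spread of Serping1, and Hp (0.130 ± 0.0554) was lowest.

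**Figure D3:**
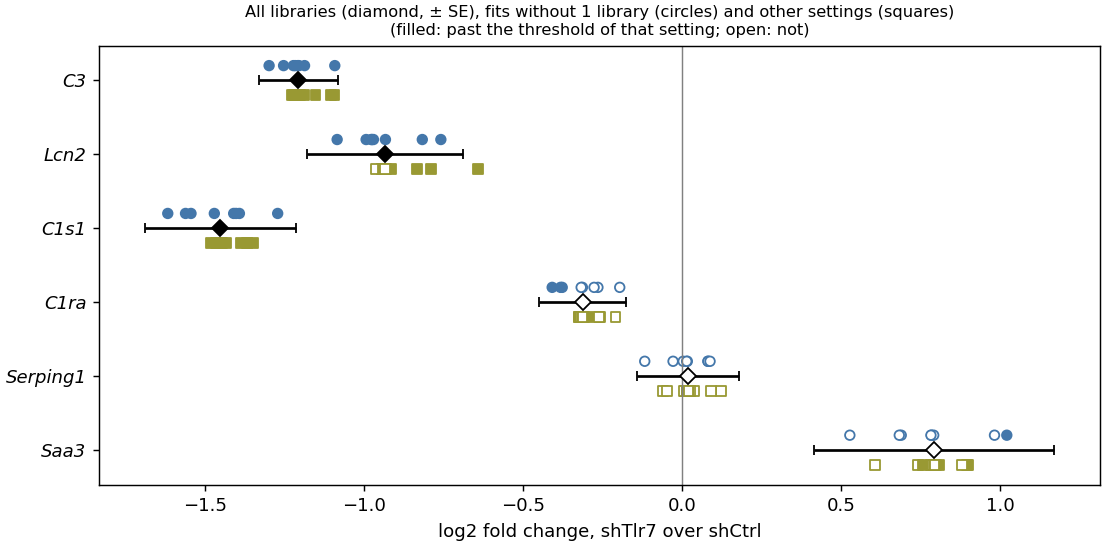
Log2 fold change (shTlr7 minus shCtrl) of the 6 tested genes with all libraries (diamonds, ± SE), in fits without 1 library (circles) and under the other settings (squares), filled where the threshold of that setting was passed. C3 and C1s1 stay below -1 throughout, Lcn2 lies between -1.09 and -0.64, and Serping1 lies on both sides of 0.

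Other complement genes had few counts or went both ways. In the classical and lectin list, 5 of 18 genes were tested, and C1s2 and Masp1 fell while none rose. The share called was 40%, beside 56.1% of all tested genes. Masp1, a protease of the lectin pathway, had 31.5, 27.3, 27.0 and 33.0 CPM in shCtrl replicates 1 to 4 and 12.4, 14.2, 11.6 and 13.3 CPM in shTlr7 replicates 1 to 4. Its groups lay well apart, with a log2 fold change of -1.19 ± 0.08 (SE; edgeR adjusted p = 7.52e-08). Fcna, which encodes a sugar-binding ficolin, was not called (-0.36 ± 0.24). In the alternative and terminal list, 2 of 10 genes were tested, and 50% of these were called. Cfp, encoding properdin, which stabilises the C3-cleaving enzyme, rose by 0.32 ± 0.11 on the log2 scale (edgeR adjusted p = 0.0230), with overlapping groups, and C8g, a chain of the membrane attack complex, was not called (-0.05 ± 0.11). The call for Cfp was lost without shCtrl replicate 1 (edgeR adjusted p = 0.0565), shCtrl replicate 2 (0.102), shTlr7 replicate 1 (0.0508) or shTlr7 replicate 3 (0.0569). C2, C4a, C4b and Cfb had 0, 0, 2 and 1 counts in all, and each has 3 further rows in the count table that hold 0 counts. Whether reads that match several of these rows were dropped in counting was not tested. The counts of these genes therefore do not show that they were not expressed.

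Of 20 complement regulators and receptors 5 were tested, 2 called higher and 2 lower. This is 80% called, beside 56.1% of all tested genes. Clu, encoding clusterin, an extracellular chaperone that binds the terminal complex, had 269, 252, 239 and 338 CPM in shCtrl replicates 1 to 4 and 542, 546, 461 and 562 CPM in shTlr7 replicates 1 to 4. All shTlr7 libraries were higher, with a log2 fold change of 0.94 ± 0.11 (SE; edgeR adjusted p = 8.43e-05). Cr1l, encoding the rodent membrane regulator Crry, rose from 25.6 ± 1.06 to 33.0 ± 2.13 CPM (0.36 ± 0.06, edgeR adjusted p = 1.63e-04). C5ar2, a receptor for C5a, fell from 0.610 ± 0.0297 to 0.292 ± 0.101 CPM (-0.96 ± 0.26, edgeR adjusted p = 0.00682). Susd4, a membrane inhibitor of complement, had -0.24 ± 0.07 (edgeR adjusted p = 0.0137), a call lost when libraries were scaled by total alone (0.142). Cd46, a membrane cofactor for cleavage of C3b, was not called (0.30 ± 0.13). It passed without shCtrl replicate 4 (edgeR adjusted p = 0.0142) or without both libraries numbered 4 (edgeR adjusted p = 0.0189).

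Of 28 other acute-phase genes 7 were tested, 3 called higher and 3 lower, with a median log2 fold change of -0.16 beside 0.01 for all tested genes. The share called was 85.7%, beside 56.1% of all tested genes. Cp, encoding the copper-carrying ferroxidase ceruloplasmin, fell from 1565 ± 51.7 to 237 ± 10.3 CPM (-2.73 ± 0.05, edgeR adjusted p = 2.01e-13). Cd14, a co-receptor for lipopolysaccharide, fell from 65.4 ± 5.27 to 18.5 ± 3.24 CPM (-1.82 ± 0.11), and the serpin gene Serpina3g from 3.57 ± 0.830 to 0.988 ± 0.165 CPM (-1.83 ± 0.20). The metallothionein gene Mt2 rose from 47.8 ± 8.12 to 70.1 ± 8.22 CPM (0.56 ± 0.12, edgeR adjusted p = 0.00410). The other two higher genes, named after their values were seen, were Mt1 (0.41 ± 0.12) and Steap4 (0.95 ± 0.35).

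**Figure D4:**
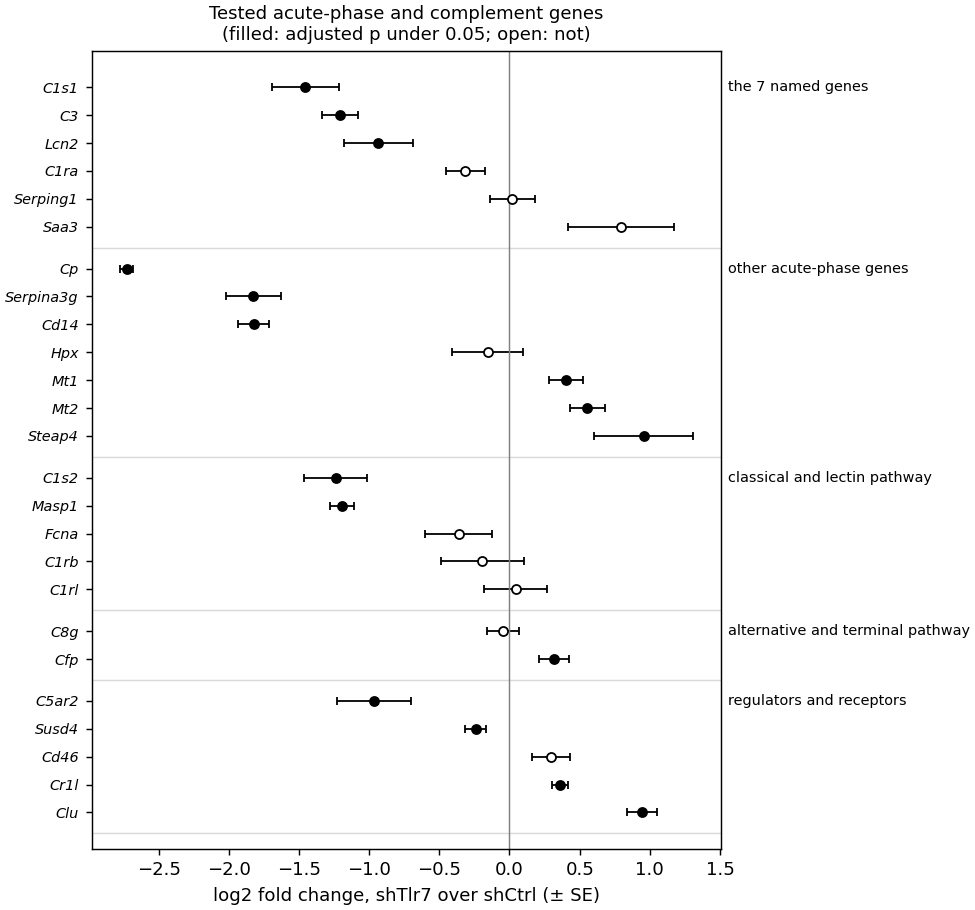
Log2 fold change ± SE (shTlr7 minus shCtrl) of the tested genes of the 7, of the other acute-phase list and of the complement lists, filled where the edgeR adjusted p was under 0.05. C1s1, C1s2, Masp1 and C3 lie below -1, Clu at 0.94, and Cp is lowest at -2.73.

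Of 16 receptors and partners of the 7 proteins 6 were tested, and 4 were called higher and 2 lower. This is 100% called, beside 56.1% of all tested genes. Mmp9, the metalloprotease that lipocalin 2 binds, fell from 1334 ± 136 to 169.8 ± 41.4 CPM (-2.97 ± 0.18, edgeR adjusted p = 4.88e-06). Lrp1, an endocytic receptor for complexes of proteases with their inhibitors, fell from 681 ± 94.2 to 325 ± 45.6 CPM (-1.07 ± 0.12). Hmox1, encoding the enzyme that breaks down haem, rose from 15.2 ± 1.69 to 40.1 ± 5.55 CPM (1.40 ± 0.11), and Scarb1, a lipoprotein receptor that takes up serum amyloid A, rose from 126 ± 6.99 to 161 ± 5.92 CPM (0.35 ± 0.05). The other two higher genes, Tlr2 (0.59 ± 0.14) and Tlr4 (0.77 ± 0.11), were named after their values were seen.

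Of the pathways that induce acute-phase genes, the interleukin-6 and STAT3 list had 5 of 17 tested genes higher and 4 lower, with a median of 0.02. The 52.9% called is near the 56.1% of all tested genes. The kinase gene Jak2 fell from 516 ± 34.7 to 331 ± 13.1 CPM (-0.64 ± 0.05), and Socs3, a feedback inhibitor and STAT3 target, fell from 71.7 ± 8.24 to 45.6 ± 2.90 CPM (-0.65 ± 0.08). Lifr, a receptor chain, rose from 1.20 ± 0.175 to 3.44 ± 0.399 CPM (1.49 ± 0.15), and Pias3, a STAT3 inhibitor, had 0.42 ± 0.05. Stat3 itself, named after its values were seen, was not called (0.06 ± 0.06, edgeR adjusted p = 0.407). It passed without shCtrl replicate 4 (0.11, edgeR adjusted p = 0.0315) or without both libraries numbered 4 (0.12, edgeR adjusted p = 0.0178).

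In the interleukin-1, interleukin-17, NF-kB and C/EBP list, 7 of 23 tested genes were higher and 6 lower, with a median of 0.01, and the 56.5% called is also near the background. The cytokine genes Il1a (-2.96 ± 0.30) and Il1b (-2.21 ± 0.15) had the largest falls of this list. Nfkbiz, an NF-kB cofactor needed for Lcn2 induction, fell from 134 ± 23.5 to 56.6 ± 2.12 CPM (-1.24 ± 0.10, edgeR adjusted p = 5.41e-06). Nfkbiz was highest in shCtrl replicate 4, as were Lcn2 and genes of other lists such as Jak2. In shTlr7 replicate 4, Nfkbiz was the highest of the group (58.5 CPM) and Lcn2 the lowest (228 CPM). Nfkb1 had -0.34 ± 0.04 and the receptor chain gene Il17rc 0.58 ± 0.05. Among factors named after their values were seen, Cebpb was lower (-0.32 ± 0.07, edgeR adjusted p = 0.00102), Rela higher (0.18 ± 0.05, edgeR adjusted p = 0.0122) and Cebpd not called (0.23 ± 0.20).

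Of 11 interferon factors, all tested, 6 were higher and 3 lower, with a median of 0.19. The share called was 81.8%, beside 56.1% of all tested genes. The transcription factor genes Irf7 (2.60 ± 0.18), Irf9 (1.30 ± 0.09) and Irf8 (0.90 ± 0.07) rose, and the receptor chain gene Ifnar2 fell (-0.71 ± 0.05). With libraries scaled by total alone, the median of all tested genes was 0.11 in place of 0.01, and 5513 genes were higher and 2491 lower in place of 3927 and 3590. In that scaling 0 of the 6 tested genes of the 7 were higher and 3 lower. The interleukin-6 list had 9 higher and 4 lower in place of 5 and 4. For the interleukin-1 list these were 11 and 5 in place of 7 and 6. Higher calls thus rose in both lists, as they did over all 13393 tested genes.

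**Figure D5:**
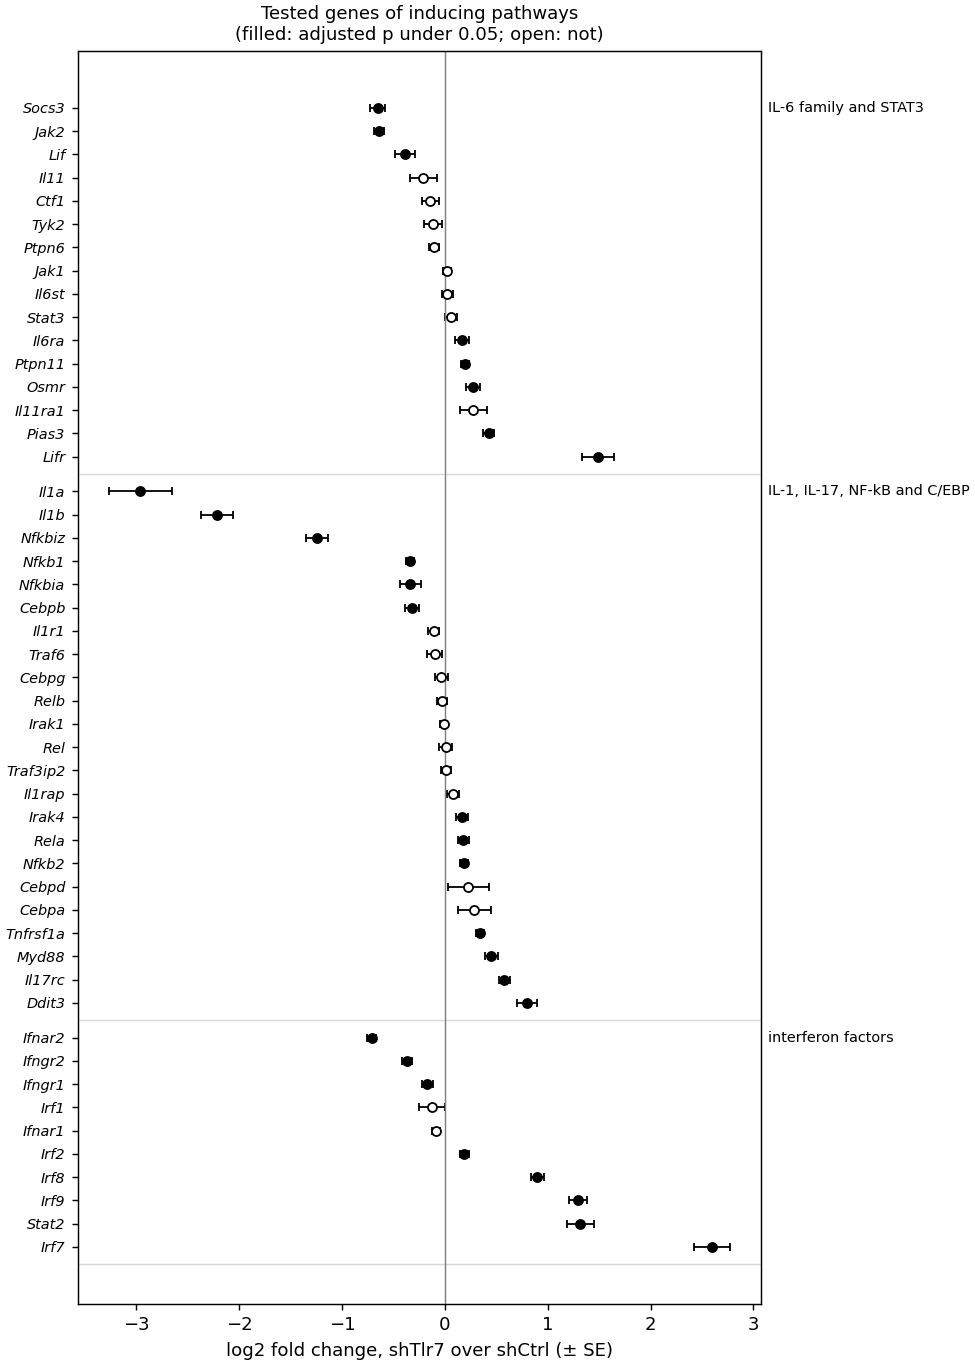
Log2 fold change ± SE (shTlr7 minus shCtrl) of tested genes of the inducer lists, filled where the edgeR adjusted p was under 0.05. Il1a and Il1b lie lowest, at -2.96 and -2.21, Irf7 highest, at 2.60, and Stat3 near 0.

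The genes nearest in pattern were found by the root mean square difference of log2 CPM over the 8 libraries, each gene measured from its own shCtrl mean. For C3 these were Ccn4 (0.113) and Wnt10a (0.134), and for Lcn2 they were Ccn4 (0.183) and Lrp4 (0.192). Ccn4, which encodes a matricellular protein, had 22.2, 21.1, 21.2 and 26.6 CPM in shCtrl replicates 1 to 4 and 12.1, 10.6, 10.6 and 7.19 CPM in shTlr7 replicates 1 to 4. Ccn4 was highest in shCtrl replicate 4 and lowest in shTlr7 replicate 4, a likeness to Lcn2 that follows from how it was chosen. For C1s1 the nearest was the integrin gene Itgb7 (0.160), and for C1ra they were C1qtnf6 (0.0777) and Raet1d (0.0879). For Serping1 they were Ddx28 (0.0811) and Gsn (0.110), and for Saa3 they were Dusp8 (0.293) and Acod1 (0.309). Among fits without 1 library, Dusp8 and Acod1 were called only without shTlr7 replicate 4, as was Saa3. Raet1d was called there only without shTlr7 replicate 2. Likeness across these libraries was the ground for choosing the genes, so it is no separate result. Without both libraries numbered 4, Dusp8 (0.91, edgeR adjusted p = 0.0168) and Acod1 (0.85, edgeR adjusted p = 2.52e-07) were called. Acod1 was called in 9 of 21 alternatives. Within a difference of 0.2 there were 557 genes for Serping1, 354 for C1ra, 35 for C3, 2 for Lcn2, 1 for C1s1 and 0 for Saa3. The difference includes the change between groups and the noise of low counts, so these numbers do not rank how unusual a pattern is.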

How the data were processed

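The authors deposited whole-number read counts per gene for 8 libraries, not normalized. Build GRCm38 and the tools DESeq2 1.32.0 and STAR 2.7.5 are listed, without their roles, per the submitters' processing notes. For the counting program, strand setting and annotation, the entry is "not given in the sources used here". Groups and replicate numbers came from the labels.

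edgeR 4.0.16 in R 4.3.3 was run on the counts as deposited: filterByExpr (minimum count 10; 13393 genes kept), TMM scaling, robust glmQLFit and glmQLFTest, and Benjamini-Hochberg adjustment over all tested genes with a threshold of 0.05. The SE is the log2 fold change over the square root of F. Ratios of counts were compared by exact permutation over 70 splits. Members and lists were chosen with earlier results of these data known. The rule for named genes took the 7 genes, their paralogues, tested complement genes, from each other list the 4 with the lowest p and the 2 called with the largest change, and the 2 genes nearest in pattern to each of the 7; others are marked as named after their values were seen. Values of a few such genes are not reported here; the counts over lists include them. Gene positions and promoters are from RefSeq (GRCm38.p6), and transcript lengths, exon overlap and shared stretches from GENCODE M21.

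Tested on simulated data for this comparison (13251 genes), the fit recovered 38% of 50 genes changed 1.25-fold, 76% changed 1.5-fold, 94% changed 2-fold and 98% changed 3-fold. The simulation changed only 50 genes per fold and drew the libraries independently, whereas 56.1% of the real tested genes were called. These rates may therefore not hold for the real libraries. No pair of libraries in a group agreed within sampling noise (chi-square per degree of freedom 2.23 to 21.9). Totals of 18.1 to 93.8 M counts leave Hp and Saa3 with few counts. Alternatives were other scalings (RLE, upper quartile, total alone), DESeq2 1.42.0, limma-voom (limma 3.58.1), no filter on low counts or at least 1 CPM in 4 libraries, a replicate block, each library or both numbered 4 left out, counts thinned to the smallest total, gene copies summed, adjusted p under 0.01, and glmTreat at a fold of 1.5.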

Additional observations from a re-analysis of the deposited data

Results flagged for a closer look

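Among 124 sets of 4 libraries examined, 13 held 1 library far from the other 3 relative to the range of the set. Chance alone marks about 1 in 20 such sets if they are independent. These sets share libraries, and some of their genes were chosen for like patterns, so that rate is only a rough guide. Of the 13, 7 concerned shCtrl replicate 4 and 2 concerned shTlr7 replicate 4.

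In shCtrl replicate 4, Lcn2 was high at 893 CPM (632 to 670.3 in the others), and the count ratio of Lcn2 to C3 was high at 0.664 (0.487 to 0.501 in the others). Also high in this library were Nfkbiz at 169 CPM (121 to 125 in the others), Irf7 at 35.0 CPM (24.2 to 25.7 in the others), Irf9 at 49.8 CPM (40.6 to 42.2 in the others) and Susd4 at 28.8 CPM (23.5 to 24.4 in the others). Low in it was Gsn at 279.8 CPM (363 to 375 in the others).

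In shTlr7 replicate 4, Scarb1 was low at 152 CPM (163 to 165 in the others) and Itgb7 at 1.71 CPM (2.91 to 3.11 in the others), and this library was the lowest of its group for all 6 tested genes of the 7. In other libraries, Hp was at 0 in shCtrl replicate 3 (0.162 to 0.177 CPM in the others), Cfp was low in shTlr7 replicate 2 at 5.15 CPM (5.98 to 6.11 in the others), C8g low in shTlr7 replicate 1 at 3.54 CPM (4.09 to 4.11 in the others), and Rela high in shCtrl replicate 1 at 179.6 CPM (164 to 165 in the others). What sets these libraries apart was not tested.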

How the results depend on the processing

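C3 and C1s1 kept their fall and their call in all 8 fits without 1 library and under the 13 other settings. Lcn2 kept its fall (-1.09 to -0.76 without 1 library) but was not called with the replicate block (-0.96, edgeR adjusted p = 0.0874), at adjusted p under 0.01 (-0.94) or against a glmTreat fold of 1.5 (-0.94). C1ra was called with DESeq2 (-0.32), limma-voom (-0.26), no filter on low counts (-0.30), the replicate block (-0.32) and without both libraries numbered 4 (-0.26), and ranged from -0.41 to -0.20 without 1 library. Saa3 was called with no filter (0.81), the replicate block (0.76) and without both libraries numbered 4 (0.90), each giving 1 higher gene of the 7, and ranged from 0.53 to 1.02 without 1 library (0 to 1 higher genes). Serping1 turned sign with limma-voom (-0.0597) and without both libraries numbered 4 (-0.0484), and ranged from -0.12 to 0.0874 without 1 library. The cause was not tested. Saa3 was not tested at 1 CPM or more in 4 libraries, and Hp had a value with no filter only (0.18 ± 0.54, SE).

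Against a glmTreat fold of 1.5, 472 genes were higher and 666 lower, and 8 and 11 of the pathway lists in place of 28 and 22. Among genes not called, C8g turned sign with library size only (0.0559), limma-voom (0.0203) and without both libraries numbered 4 (0.0238), and Gsn with library size only (0.0927) and no filter (0.00783). Without 1 library C8g ranged from -0.10 to 0.0267, C1rl from -0.20 to 0.20, Ddx28 from -0.0602 to 0.13 and Gsn from -0.11 to 0.0678.

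Replicate numbers were not taken as pairs: deviations of same-numbered libraries correlated at -0.00676, 0.114, 0.118 and 0.380 for numbers 1 to 4, and not every library correlated best with its own number. The replicate block gave 4334 genes higher and 4005 lower. Depth limits Hp and Saa3 most, with 41 and 183 counts in all.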

Other observations

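Slc22a17 and Il1rn, both chosen after their values were seen, were too low for the test but did not overlap between groups in CPM. Lack of overlap held for 49.8% of all tested genes, a share that does not cover genes too low to test. Most untested genes of the lists overlapped, though some others did not. Slc22a17, which encodes a receptor for lipocalin 2, had 2, 2, 2 and 1 counts in the shCtrl libraries in order of replicate and 5, 25, 10 and 5 in the shTlr7 libraries, or 0.0736 ± 0.0362 and 0.245 ± 0.0525 CPM (SD, n = 4). Il1rn, which encodes the interleukin-1 receptor antagonist, had 2, 5, 1 and 0 and 3, 18, 12 and 4 counts, or 0.0650 ± 0.0502 and 0.206 ± 0.0934 CPM. Il6, the main inducer of acute-phase genes in liver, had 1, 1, 0 and 0 counts in shCtrl and 1, 9, 9 and 0 in shTlr7. These gave 0.0185 ± 0.0254 and 0.101 ± 0.111 CPM, with overlapping groups. Lrg1, an acute-phase glycoprotein gene, had 25 counts over the shCtrl libraries and 122 over the shTlr7 libraries. Scaled to depth, its means were 0.246 ± 0.114 and 0.595 ± 0.218 CPM, with overlapping groups. These genes were not tested.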
